A study of Homo sapiens with 18 samples.

Results

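The comparison described here sets endothelial cells that were cultured with beads carrying only immunoglobulin G (IgG) against the same cells left untreated. Its members are 6 of the 18 arrays of the series, 3 named for IgG beads and 3 named as untreated, chosen by the bracketed part of their titles. The cells were human umbilical vein endothelial cells (HUVEC), lining cells of a vein that grow as a flat sheet in culture, supplied by ATCC and labelled as a normal endothelial cell line. A culture time of 3 days is given for the bead cells, none is given for the untreated cells, and 300 ng of total RNA was labelled for each array. The bead group is the control for 4 further groups of 3 arrays each, in which HUVEC received extracellular vesicles captured through CD63 or MHC class 1 from Jurkat T cells or from JinB8, a Jurkat line that lacks CD47. These 12 arrays enter the model below only through the shared estimate of the spread. The origin of the 3 arrays within a group, from separate cultures or from one, is not stated, and p-values therefore describe the spread between samples that may be technical repeats. The sources used here do not say what the beads are made of, how many were added or whether the untreated cells were handled alongside them.

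A bead coated with IgG can meet a cell in several ways. Fc receptors bind the constant part of IgG, and those of the Fc gamma family signal when they are clustered on leukocytes. The neonatal Fc receptor, encoded by FCGRT, carries IgG through endothelial cells and returns it from endosomes, while TRIM21 binds IgG that has reached the cytosol. Surface-bound IgG can also start the complement cascade, which endothelial cells restrain with membrane regulators such as CD59, and particles that touch the cell can be taken up into lysosomes. When endothelial cells are activated, for example by cytokines, they raise adhesion molecules such as E-selectin, VCAM-1 and ICAM-1 together with chemokines that draw leukocytes. The comparison asks which of these genes differ with the control beads alone, before any vesicle is added.

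Replicate 3 of each group stood apart from the other arrays, and this precedes every result below. Levels are the deposited log2 signal, taken for 18395 genes, each read from 1 probe set. The 4 other arrays, called concordant here, correlated with each other over genes at Pearson's r of 0.987 to 0.995, a description across genes, which are not independent replicates. Untreated replicate 3 correlated with those 4 arrays at 0.532 to 0.606 and bead replicate 3 at no more than 0.573, while the correlation between these 2 arrays was 0.851. The SD over genes was 1.92 to 2.04 in the concordant arrays, 1.29 in untreated replicate 3 and 1.17 in bead replicate 3. The 1840 genes (the top decile) with the highest level in the concordant arrays averaged 9.43 to 9.61 there, 6.56 in untreated replicate 3 and 6.26 in bead replicate 3. The lowest decile averaged 3.14 to 3.21 there and was higher in the discordant arrays, at 3.88 and 3.96. Since the deciles were formed on the concordant arrays, part of this gap follows from the choice. Per unit of level in the concordant arrays of their own group, the discordant arrays moved by 0.38 and 0.30. No label gives a reason, RNA quality was not recorded in the sources used here, and its part in any result was not tested. Differences are therefore given with all arrays (the 18-array fit) and without both replicate 3 (the 16-array fit, 2 arrays against 2).

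**Figure D1:**
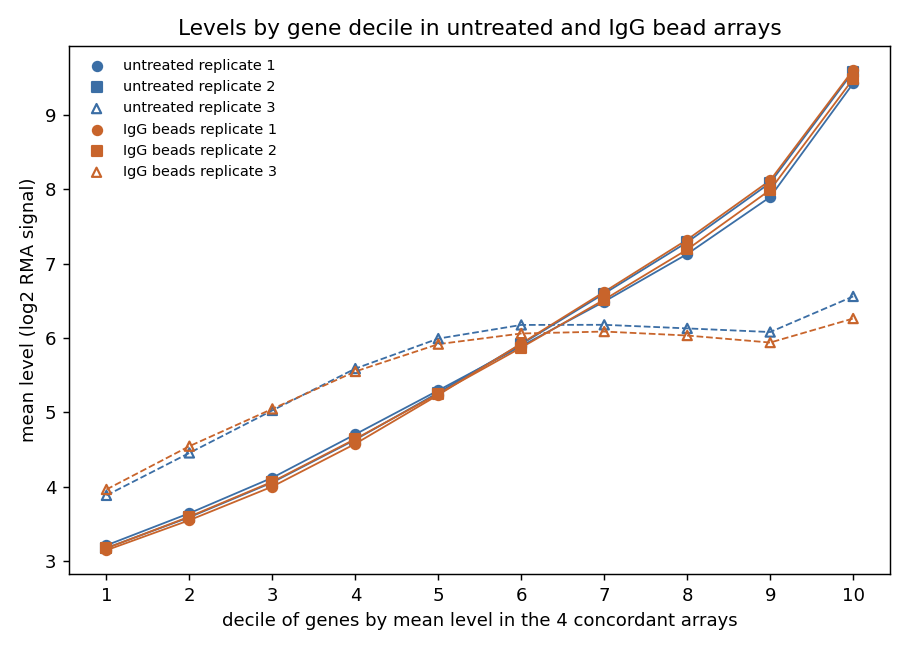
Mean level (log2 RMA signal) of genes in 10 bins, ordered by their mean in the 4 concordant arrays, for the 3 untreated (blue) and 3 IgG bead arrays (orange); open triangles and dashed lines are replicate 3. The concordant arrays run from 3.14 to 3.21 in the lowest bin up to 9.43 to 9.61 in the highest, whereas the replicate 3 arrays end at 6.56 and 6.26.

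The concordant arrays read as endothelial. Of 40 measured genes of endothelial identity, 37 lay above the median of all genes (5.58) and 29 above the upper quartile (7.23). A level also depends on the probe set, so that levels of different genes are placed only against these quartiles. CDH5, the VE-cadherin of endothelial junctions, read 11.78, 11.97 and 9.04 in the untreated arrays and 11.89, 11.82 and 6.97 in the bead arrays (here and below in the order of replicates 1, 2 and 3). PECAM1, the junction and adhesion molecule CD31, read 11.58, 11.80 and 7.59 in the untreated arrays and 11.70, 11.81 and 5.90 in the bead arrays. KDR, the main receptor for vascular endothelial growth factor, read 9.75, 10.14 and 5.90 in the untreated arrays and 10.05, 10.12 and 5.11 in the bead arrays. In each of these 3 genes the 4 concordant arrays lay close together and both replicate 3 arrays lay far below them. ERG, the ETS factor that maintains endothelial identity, averaged 10.30 over the concordant arrays. TEK, the angiopoietin receptor TIE2, averaged 9.62 and EMCN, the sialomucin endomucin of veins and capillaries, 10.11. VWF, the clotting glycoprotein stored in Weibel-Palade bodies, averaged 7.48, and NOS3, the endothelial nitric oxide synthase, averaged 7.04, just under the upper quartile.

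Marker lists of other cell types had low means in the concordant arrays, with single members above. The list means of T cell, B cell, monocyte, and erythroid and platelet markers lay between 4.06 and 4.48 in these arrays. Epithelial markers averaged 5.13 to 5.22, and fibroblast and smooth muscle markers 5.37 to 5.50. PTPRC, the leukocyte antigen CD45, read 3.04, 3.05 and 3.35 in the untreated arrays and 2.93, 2.99 and 3.42 in the bead arrays. CD3E, a subunit of the T cell receptor complex, read 3.71, 3.60 and 4.41 in the untreated arrays and 3.44, 3.73 and 3.76 in the bead arrays, with all 4 concordant values under the lower quartile of all genes (4.05). Of 12 T cell markers 2 lay above the median of all genes, and CD7, a surface glycoprotein of T cells, averaged 7.27, just above the upper quartile. Of 10 epithelial markers 3 lay above the median, and KRT18, a keratin of simple epithelia, averaged 8.91. Of the mural cell genes, RGS5 averaged 10.43 and TAGLN, an actin-binding protein, 8.85, both above the upper quartile, whereas PDGFRB, the receptor that defines pericytes, read 4.31, 4.14 and 5.99 in the untreated arrays and 3.99, 4.14 and 5.85 in the bead arrays. In the discordant arrays all 6 lists of other cell types had a higher mean, from 4.93 to 6.11. The endothelial list had a lower one, 6.94 in untreated and 6.29 in bead replicate 3. Deciles of all genes near these levels shifted in the same directions. Decile 4 averaged 4.58 to 4.70 in the concordant arrays, 5.59 in untreated replicate 3 and 5.55 in bead replicate 3. Decile 9 averaged 7.90 to 8.12, 6.08 and 5.94 in the same order. A shift specific to cell type markers was not tested.

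**Figure D2:**
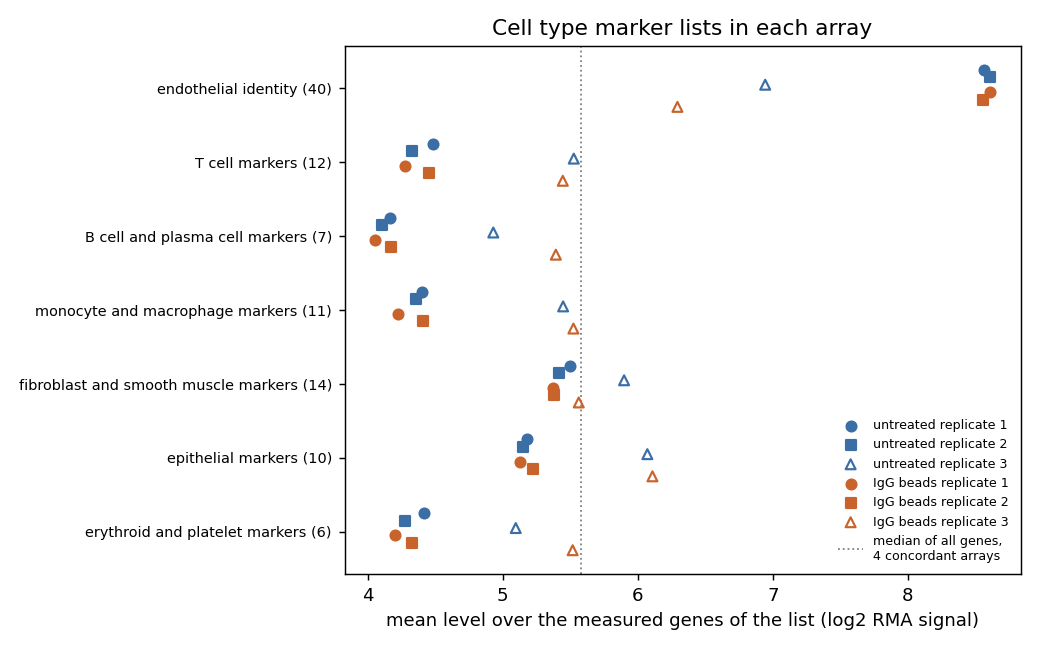
Mean level (log2 RMA signal) of 7 cell type marker lists in each of the 6 arrays, with the number of measured genes in brackets; the dotted line is the median of all genes in the 4 concordant arrays. The endothelial list lies at 8.55 to 8.61 in the concordant arrays and at 6.94 and 6.29 in the replicate 3 arrays, where all 6 lists of other cell types are higher than in the concordant arrays.

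Among the fate markers, both measured venous genes were high at rest. EPHB4, a receptor of venous endothelium, averaged 9.08 and NRP2, a co-receptor of veins and lymphatics, 10.02 over the concordant arrays, both above the upper quartile. Of the 10 arterial markers 1 lay above that quartile, and their median level was 5.51. GJA4, the arterial connexin 37, read 5.69, 5.73 and 8.32 in the untreated arrays and 5.49, 5.31 and 6.83 in the bead arrays, and the NOTCH target HEY2 read 3.71, 3.43 and 5.27 in the untreated arrays and 3.60, 3.67 and 4.75 in the bead arrays. The 6 lymphatic markers had a median level of 5.30. PROX1, the factor that specifies lymphatic endothelium, read 5.55, 5.48 and 5.16 in the untreated arrays and 5.60, 5.60 and 4.49 in the bead arrays, near the median of all genes, while LYVE1, a hyaluronan receptor, averaged 8.02 and RELN, the matrix glycoprotein reelin, 8.37.

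Of the genes whose products could meet the IgG on the beads, 2 of the 3 for transport or intracellular binding lay above the upper quartile. FCGRT read 7.82, 7.88 and 7.69 in the untreated arrays and 7.88, 7.75 and 7.14 in the bead arrays. TRIM21 read 8.36, 8.57 and 5.06 in the untreated arrays and 8.41, 8.36 and 6.15 in the bead arrays. The 3 measured Fc gamma receptors were low, while FCGR1A, FCGR2C and FCGR3B were not measured here. FCGR2A, an activating receptor, read 3.28, 3.01 and 3.45 in the untreated arrays and 3.08, 3.33 and 3.45 in the bead arrays. FCGR2B, the inhibitory receptor, read 3.53, 3.39 and 4.50 in the untreated arrays and 3.23, 3.19 and 4.36 in the bead arrays, and FCGR3A averaged 3.30 over the concordant arrays. All 3 lay under the lower quartile of all genes in the concordant arrays, and whether they were above background is not known, since no detection calls were used here. Of 6 complement regulators 5 lay above the upper quartile, with CD59, which blocks the terminal complex, averaging 11.43. The 9 complement components had a median level of 4.90 and none lay above the upper quartile. CD93, an endothelial C1q receptor-like lectin, averaged 10.11. Of the 12 scavenger and uptake receptors, 3 lay above the upper quartile, and the macrophage receptors MSR1 and CD36 averaged 3.08 and 3.13, whereas STAB1, an endothelial scavenger receptor, averaged 8.12. In the lysosome and phagosome list 23 of 27 genes lay above the upper quartile, among them LAMP1, a major lysosomal membrane protein, at 10.68 and CTSB, the protease cathepsin B, at 11.62.

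Several genes of endothelial activation were high in untreated cells. The list of 28 measured members had a median level of 6.66 in the concordant arrays, with 21 above the median of all genes and 10 above the upper quartile. ICAM1, a ligand for leukocyte integrins, read 10.23, 10.57 and 7.64 in the untreated arrays and 10.55, 10.45 and 6.05 in the bead arrays. SELE, which encodes E-selectin, read 8.01, 8.85 and 5.14 in the untreated arrays and 8.32, 8.71 and 5.40 in the bead arrays. CCL2, a chemokine that attracts monocytes, read 11.50, 11.36 and 7.85 in the untreated arrays and 11.49, 11.24 and 7.64 in the bead arrays, and CXCL8, the neutrophil attractant interleukin 8, averaged 9.83. VCAM1, another integrin ligand, was below the median of all genes and read 4.53, 5.05 and 4.31 in the untreated arrays and 4.86, 4.93 and 4.90 in the bead arrays. Interferon-stimulated genes were also high without any bead. Of 31 measured members all lay above the median of all genes and 26 above the upper quartile. IFI6, an antiviral protein of the endoplasmic reticulum, averaged 12.77, IFI44L 11.27 and MX1, a GTPase that blocks viral replication, 10.69.

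Flow-responsive and mechanical genes and growth genes completed the resting picture. KLF2, the factor that laminar flow induces, averaged 7.84 and KLF4 5.52 over the concordant arrays, the first above the upper quartile and the second near the median. ANKRD1, a target of the mechanosensor YAP, averaged 12.15. MKI67, the proliferation antigen Ki-67, read 7.44, 8.04 and 5.66 in the untreated arrays and 7.95, 7.72 and 6.96 in the bead arrays, above the upper quartile in each concordant array. The G2 and mitosis list averaged 6.17 and 6.40 in the concordant untreated arrays and 6.60 and 6.11 in the concordant bead arrays, a wider gap within the bead group than between the group means. Above the upper quartile were 5 of its 30 genes, and 4 of the 24 genes of G1/S and DNA replication. THBS1, the matrix protein thrombospondin 1 that binds CD47, averaged 13.20. CD47, the receptor missing in the JinB8 line, averaged 8.81 in these HUVEC, and CD63, the tetraspanin used to capture vesicles, 11.01.

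No gene was called different between IgG beads and untreated cells. In the 18-array fit 0 of 18395 genes had a limma adjusted p under 0.05 (0%), and in the 16-array fit the count was also 0 (0%). At an unadjusted p under 0.05 there were 203 genes in the 18-array fit, 57 higher and 146 lower with beads. The 16-array fit had 188, of which 60 were higher and 128 lower. The smallest unadjusted p was 0.00148 in the first fit and 0.00124 in the second. All unadjusted p-values below are limma's, two-sided, and every gene named has an adjusted p above 0.99 in both fits, so that none of the differences given passed the test.

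The precision of this result depended on the discordant arrays. The median absolute difference per gene was 0.17 in the 18-array fit and 0.11 in the 16-array fit. The median SE was 0.34 and 0.20. The 95% interval of the difference stayed within 1 log2 unit, a 2-fold change, on both sides for 10142 genes (55.1%) with all arrays and for 17407 genes (94.6%) without both replicate 3. A difference of more than 2-fold was estimated for 21 genes in the first fit and for 1 gene in the second. The sign of the difference was the same in both fits for 12227 genes, or 66.5%. Each interval covers 1 gene and is not adjusted for the number of genes.

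Among the concordant arrays the order of distances did not follow the groups. Untreated replicate 2 was nearer to both bead arrays, with median absolute differences of 0.123 and 0.126 per gene, than to untreated replicate 1, at 0.186. The 2 concordant bead arrays differed from each other by 0.154. Untreated replicate 1 was 0.229 from bead replicate 1, the widest gap of these pairs, and 0.172 from bead replicate 2. Over 2-fold apart were 8 and 5 genes between untreated replicate 2 and the bead arrays, 80 and 45 between untreated replicate 1 and the bead arrays, and 35 between the 2 untreated arrays.

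Counts of genes whose arrays do not overlap serve as background for the lists. All 3 bead arrays lay above all 3 untreated arrays in 112 genes (0.609%) and below them in 194 (1.05%). Both concordant bead arrays lay above both concordant untreated arrays in 2253 genes (12.2%) and below them in 3130 (17%). The median difference over all genes was -0.02 in the 18-array fit and -0.01 in the 16-array fit. Of the 18395 genes, 9801 had a negative and 8594 a positive difference in the 16-array fit. In the 18-array fit these counts were 9775 and 8620.

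No endothelial identity gene passed the test in either fit. Without both replicate 3 the median difference of the 40 genes was 0.01, with 23 higher and 17 lower with beads. Both concordant bead arrays lay above in 5 (12.5% against 12.2% of all genes) and below in 3 (7.5% against 17%). With all arrays the median was -0.25 and 32 of the 40 genes were lower. The discordant arrays fell below the concordant arrays by a median of 2.13 in the untreated and 2.53 in the bead group over these genes, so that the negative median arises where replicate 3 enters. For CDH5 the difference was -0.70 ± 0.99 (SE, 3 against 3 arrays) with all arrays and -0.02 ± 0.12 (SE, 2 against 2) without both replicate 3, with a 95% interval of -0.28 to 0.24 in the latter. For PECAM1 these were -0.52 ± 1.26 and 0.07 ± 0.14, and for KDR -0.17 ± 1.13 and 0.14 ± 0.18.

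RAMP2 was the 1 identity gene of 40 with all 3 bead arrays below all 3 untreated arrays, which held for 1.05% of all genes. It encodes the partner of the adrenomedullin receptor, which maintains vessel integrity, and read 6.52, 6.43 and 7.25 in the untreated arrays and 6.07, 5.94 and 5.89 in the bead arrays. The difference was -0.77 ± 0.22 in the 18-array fit (unadjusted p = 0.0034) and -0.47 ± 0.18 in the 16-array fit (unadjusted p = 0.02). Unlike most identity genes, RAMP2 was higher in untreated replicate 3 than in the other untreated arrays.

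The measured receptors for IgG showed no difference that the arrays could resolve. FCGRT differed by -0.21 ± 0.18 with all arrays and by -0.04 ± 0.13 without both replicate 3, with a 95% interval of -0.32 to 0.25. TRIM21 differed by -0.08 ± 0.28 in the 16-array fit and 0.31 ± 0.75 in the 18-array fit, so that its sign turned, and the 16-array interval was -0.68 to 0.53. FCGR2A differed by 0.06 ± 0.16 in the 16-array fit and 0.04 ± 0.17 in the 18-array fit, with a 16-array interval of -0.28 to 0.40. FCGR2B was lower in both concordant bead arrays than in both untreated ones, by -0.25 ± 0.16 in the 16-array fit and -0.21 ± 0.32 in the 18-array fit (unadjusted p = 0.15 and 0.51), at a level under the lower quartile of all genes. Over all 8 measured genes of this list the 95% intervals of the 16-array fit ran from -0.68 to 0.53. Complement genes had a median difference of -0.03 in the 16-array fit, with 9 of 19 higher, and of 0.04 in the 18-array fit, with 10 higher. CD59 differed by 0.13 ± 0.26 in the 16-array fit and 0.25 ± 1.08 in the 18-array fit.

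No gene of endothelial activation passed the test. The 28 measured members had a median difference of 0.02 in the 16-array fit, with 15 higher and 13 lower, and of -0.11 in the 18-array fit. Both concordant bead arrays lay above both untreated arrays in 2 of the 28 genes and below them in 4, shares of 7.14% and 14.3% against 12.2% and 17% of all genes. ICAM1 differed by 0.10 ± 0.18 in the 16-array fit and -0.46 ± 0.93 in the 18-array fit, with a change of sign, and its 95% interval in the former was -0.29 to 0.49. SELE differed by 0.08 ± 0.36 in the 16-array fit and 0.14 ± 0.85 in the 18-array fit, with a 16-array interval of -0.68 to 0.85. VCAM1 differed by 0.10 ± 0.16 in the 16-array fit and 0.27 ± 0.18 in the 18-array fit, with a 16-array interval of -0.24 to 0.45. VCAM1 is one of the genes whose bead value in replicate 3 lay among the concordant values, and the 3 bead arrays lay inside the range of the untreated arrays. CCL2 differed by -0.06 ± 0.17 in the 16-array fit and -0.11 ± 0.92 in the 18-array fit. CXCL8 differed by 0.02 ± 0.21 in the 16-array fit and 0.30 ± 0.87 in the 18-array fit. Of these 5 genes SELE had the widest 16-array interval, and a moderate difference in it was not detectable with this number of arrays.

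No interferon-stimulated gene passed the test. Their median difference was -0.10 in the 16-array fit and -0.08 in the 18-array fit, with 19 and 20 of 31 lower. Both concordant bead arrays lay above both untreated arrays in 2 of the 31 genes (6.45% against 12.2% of all genes). They lay below in 5 (16.1% against 17%). ISG15, a ubiquitin-like protein that is also secreted, read 9.52, 8.81 and 6.69 in the untreated arrays and 8.45, 8.53 and 7.80 in the bead arrays. Its difference was -0.67 ± 0.25 (unadjusted p = 0.018) without both replicate 3 and -0.08 ± 0.50 with all arrays, where untreated replicate 3 had the lowest value of the 6. IFI30, a lysosomal thiol reductase induced by interferon gamma, is not among these 31 genes. It read 7.08, 7.43 and 6.42 in the untreated arrays and 6.88, 6.50 and 7.24 in the bead arrays. IFI30 differed by -0.57 ± 0.18 in the 16-array fit and -0.10 ± 0.24 in the 18-array fit (unadjusted p = 0.0064 and 0.67). In bead replicate 3 it was above both other bead arrays. MX1 differed by -0.04 ± 0.14 in the 16-array fit and -0.31 ± 0.96 in the 18-array fit. IFI6 differed by -0.16 ± 0.18 in the 16-array fit and -0.29 ± 0.70 in the 18-array fit.

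No uptake or stress gene passed the test. The lysosome and phagosome list had a median difference of 0.07 in the 16-array fit, with 18 of 27 higher, and of -0.02 in the 18-array fit. In the unfolded protein and integrated stress response list, 7 of 20 genes lay above in both concordant bead arrays (35% against 12.2%), 6 of them among the 9 chaperones, whose median difference was 0.20. HSPA5, the main chaperone of the endoplasmic reticulum, read 10.46, 10.71 and 7.10 in the untreated arrays and 10.95, 10.88 and 7.18 in the bead arrays, a difference of 0.33 ± 0.23 in the 16-array fit and 0.25 ± 0.91 in the 18-array fit. DNAJB9, a co-chaperone, read 4.91, 4.95 and 4.79 in the untreated arrays and 5.19, 5.18 and 5.69 in the bead arrays and lay above in all 3 bead arrays, with a difference of 0.26 ± 0.15 in the 16-array fit and 0.47 ± 0.18 in the 18-array fit. Of the same 20 genes 3 lay below in both concordant bead arrays (15% against 17%), all of them among the 11 signalling genes. Below in all 3 bead arrays were 2 of these, TRIB3, a pseudokinase of the stress response, and CHAC1, which degrades glutathione. Over all genes 1.05% lay below and 0.609% above in all 3 bead arrays. The chaperone median turned to -0.19 with all arrays. HMOX1, the inducible heme oxygenase, differed by -0.12 ± 0.12 in the 16-array fit and -0.32 ± 1.02 in the 18-array fit. GCLC, the catalytic subunit for glutathione synthesis, read 6.01, 6.32 and 5.91 in the untreated arrays and 6.46, 6.58 and 5.58 in the bead arrays and differed by 0.36 ± 0.18 in the 16-array fit and 0.13 ± 0.24 in the 18-array fit.

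**Figure D3:**
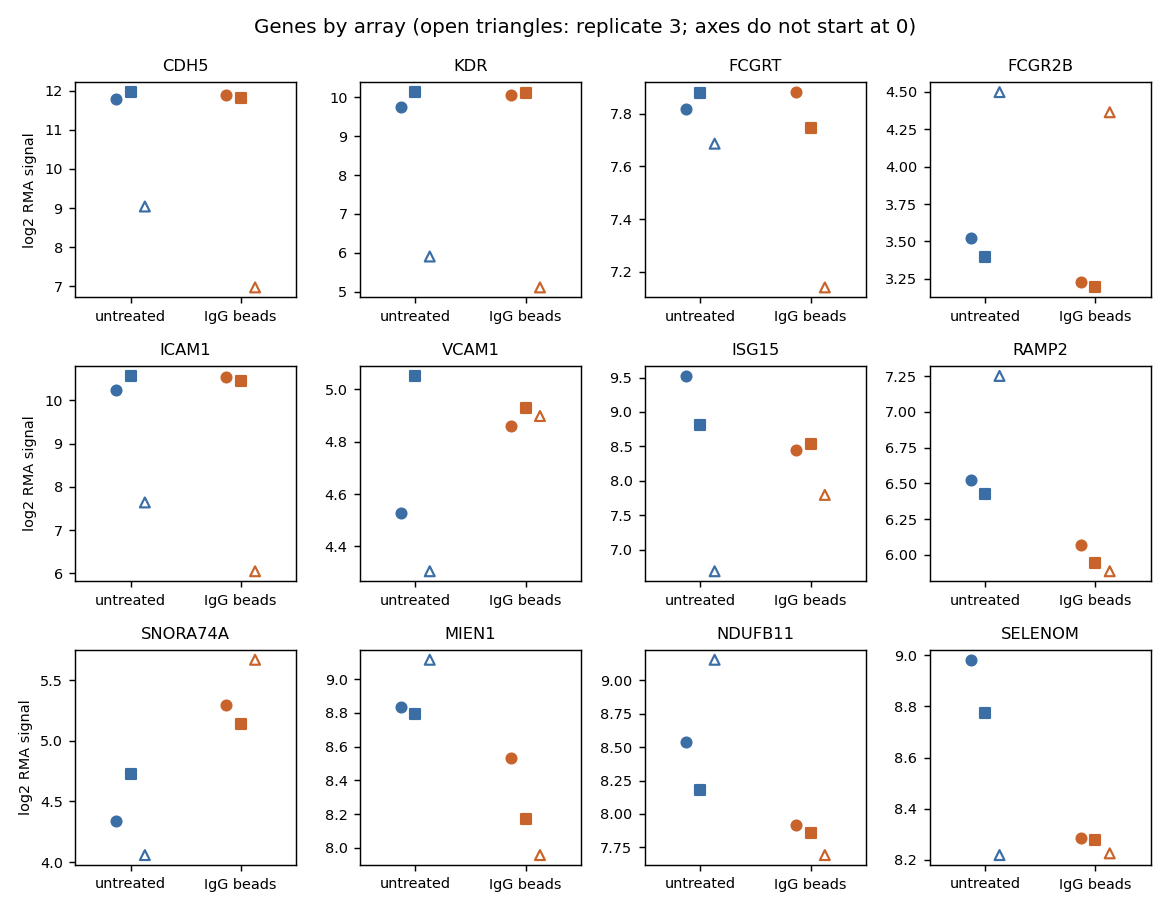
Level (log2 RMA signal) of 12 genes in each of the 3 untreated (blue) and 3 IgG bead arrays (orange), circle, square and open triangle for replicates 1, 2 and 3. In CDH5, KDR and ICAM1 both triangles lie far below the concordant arrays; in RAMP2, MIEN1 and NDUFB11 all 3 bead arrays lie below the untreated arrays, and in SNORA74A all 3 lie above.

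Metallothioneins had lower values with beads in the concordant arrays, although none passed the test. These small cysteine-rich proteins bind zinc and copper, and their genes are switched on by the metal-sensing factor MTF1 through metal response elements. MT1G read 10.22, 9.73 and 8.88 in the untreated arrays and 9.53, 9.29 and 7.51 in the bead arrays. MT1H read 5.59, 4.996 and 4.68 in the untreated arrays and 4.79, 4.62 and 4.51 in the bead arrays. MT1F read 7.27, 7.05 and 7.62 in the untreated arrays and 6.98, 6.70 and 6.05 in the bead arrays. In MT1G and MT1H both concordant bead arrays lay below both concordant untreated arrays, and in MT1F all 3 bead arrays lay below all 3 untreated ones. MT1E read 8.42, 8.21 and 7.16 in the untreated arrays and 8.04, 7.97 and 6.66 in the bead arrays. MT1X read 6.90, 6.72 and 4.60 in the untreated arrays and 6.55, 6.28 and 4.88 in the bead arrays. MT2A, the most widely expressed member, read 13.27, 13.30 and 10.81 in the untreated arrays and 13.14, 12.93 and 10.46 in the bead arrays. In these 3 genes too both concordant bead arrays were below both concordant untreated arrays, while MT1M, which read 6.16, 6.02 and 6.50 in the untreated arrays and 6.09, 5.79 and 5.62 in the bead arrays, overlapped between the concordant arrays.

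The differences were negative for 7 of 7 members in both fits, with a median of -0.32 in the 16-array fit and of -0.40 in the 18-array fit, beside -0.01 and -0.02 over all genes. In the 16-array fit MT1G differed by -0.56 ± 0.17 (unadjusted p = 0.0044), MT1H by -0.59 ± 0.19 (0.0079) and MT1X by -0.40 ± 0.18 (0.04). For MT1E, MT1F, MT2A and MT1M the values were -0.31 ± 0.15, -0.32 ± 0.16, -0.25 ± 0.14 and -0.15 ± 0.15. In the 18-array fit MT1G, MT1H and MT1X differed by -0.83 ± 0.42, -0.45 ± 0.21 and -0.17 ± 0.50, and MT1E, MT1F, MT2A and MT1M by -0.38 ± 0.34, -0.74 ± 0.22, -0.29 ± 0.64 and -0.40 ± 0.18. Of the 7 genes, 6 lay below in both concordant bead arrays, whereas the background is 17%. The 7 genes are close relatives, and a probe of one can bind transcripts of another, so that they do not count as 7 separate measurements. The 2 untreated arrays also differed among themselves, in MT1H by as much as the groups did and in MT1G by nearly as much. Without bead replicate 3 in the 18-array fit the median of the 7 was -0.20 and 4 were lower, and without untreated replicate 1 in the 16-array fit it was -0.27.

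**Figure D4:**
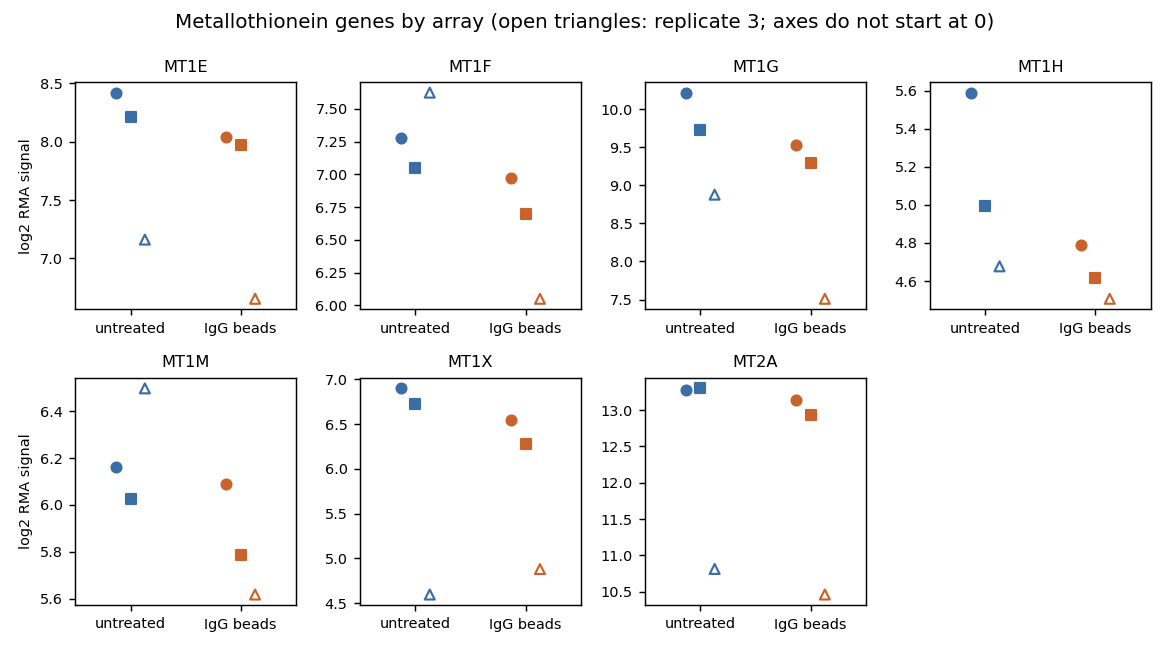
Level (log2 RMA signal) of the 7 measured metallothionein genes in each of the 3 untreated (blue) and 3 IgG bead arrays (orange), circle, square and open triangle for replicates 1, 2 and 3. In 6 of the 7 genes both filled bead symbols lie below both filled untreated symbols; MT1F has all 3 bead arrays below, and in MT1M the filled symbols overlap.

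The promoters of these genes are shown because these genes lay lower together in the concordant bead arrays. RefSeq promoter windows (build GRCh38.p14, 250 bases before to 50 after the gene start) were at hand for 3 of the 7 genes, all on the plus strand of chromosome 16, at chr16:56669564-56669863 for MT1H, chr16:56682220-56682519 for MT1X and chr16:56608334-56608633 for MT2A. Capitals mark the core of the metal response element, searched as TGCACNC and TGCGCNC on both strands, and matches on the minus strand appear as their reverse complement.
MT1H: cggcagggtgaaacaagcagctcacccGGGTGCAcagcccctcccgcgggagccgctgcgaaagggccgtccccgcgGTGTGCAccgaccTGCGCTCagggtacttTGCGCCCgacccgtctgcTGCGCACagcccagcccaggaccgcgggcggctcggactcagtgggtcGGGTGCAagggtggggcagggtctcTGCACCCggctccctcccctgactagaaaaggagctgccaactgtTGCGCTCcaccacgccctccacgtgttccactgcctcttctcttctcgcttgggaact
MT1X: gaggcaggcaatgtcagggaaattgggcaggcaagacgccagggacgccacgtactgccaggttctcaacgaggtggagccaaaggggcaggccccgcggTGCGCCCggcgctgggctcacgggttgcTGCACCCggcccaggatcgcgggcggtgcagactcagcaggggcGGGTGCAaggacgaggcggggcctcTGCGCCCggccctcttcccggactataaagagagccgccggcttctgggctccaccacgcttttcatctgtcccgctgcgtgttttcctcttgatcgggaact
MT2A: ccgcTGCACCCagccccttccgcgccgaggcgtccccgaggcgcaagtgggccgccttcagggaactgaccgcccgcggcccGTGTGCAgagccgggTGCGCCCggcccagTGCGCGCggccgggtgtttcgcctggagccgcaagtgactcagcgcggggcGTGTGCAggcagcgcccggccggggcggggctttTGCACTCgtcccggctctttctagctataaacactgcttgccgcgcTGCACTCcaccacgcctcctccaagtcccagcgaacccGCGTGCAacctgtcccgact
The windows of MT1H, MT1X and MT2A hold 8, 4 and 8 matches. Of 35116 promoter windows of the same length, 10377 (29.6%) hold at least 1 match and 211 (0.601%) hold at least 4. The cut of 4 is the fewest matches among the 3 windows shown, so that all 3 reach it by its choice. A match is a run of letters, and binding at it was not measured.

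Most replication-dependent histone genes had a negative difference, none past the test. Their mRNAs end in a stem-loop and build chromatin during DNA synthesis. Of 62 measured genes 51 had a negative difference in the 16-array fit and 41 in the 18-array fit, beside 9801 and 9775 of all 18395 genes. The median was -0.14 and -0.16, and both concordant bead arrays lay below both untreated arrays in 22 (35.5%, beside 17% of all genes). H1-5, a linker histone, read 7.25, 6.41 and 5.001 in the untreated arrays and 6.33, 5.82 and 5.32 in the bead arrays and differed by -0.76 ± 0.22 in the 16-array fit and -0.40 ± 0.40 in the 18-array fit (unadjusted p = 0.0043 and 0.34). H3C12, a histone H3 gene, read 5.08, 4.62 and 4.38 in the untreated arrays and 4.29, 4.22 and 3.89 in the bead arrays and differed by -0.60 ± 0.21 in the 16-array fit and -0.56 ± 0.22 in the 18-array fit, with all 3 bead arrays below all 3 untreated arrays. Many of these genes are near copies of each other, so that their probe sets can share transcripts.

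Genes of DNA replication had mostly positive differences. In the G1/S list 19 of 24 genes were higher in the 16-array fit and 16 in the 18-array fit, and the median was 0.08 and 0.07. Both concordant bead arrays lay above in 7 (29.2% against 12.2%) and below in 0 (against 17%). The list averaged 6.08 and 6.04 in the concordant untreated arrays and 6.30 and 6.02 in the concordant bead arrays. Bead replicate 1 alone thus had a higher list mean, and that of bead replicate 2 was below both untreated means. MCM10, a replication initiation factor, read 4.66, 4.71 and 4.90 in the untreated arrays and 5.12, 4.99 and 4.59 in the bead arrays and differed by 0.37 ± 0.17 in the 16-array fit and 0.14 ± 0.19 in the 18-array fit. The mitosis list had a median difference of 0.10 in the 16-array fit and of 0.06 in the 18-array fit. Of its 30 genes 1 lay above in both concordant bead arrays (3.33% against 12.2%) and 1 below (3.33% against 17%). NEK2, a kinase of centrosome separation, read 4.64, 4.94 and 5.67 in the untreated arrays and 5.40, 5.06 and 5.08 in the bead arrays and differed by 0.45 ± 0.17 in the 16-array fit and 0.10 ± 0.23 in the 18-array fit (unadjusted p = 0.022 and 0.67). CCNB2, a mitotic cyclin, read 5.39, 5.35 and 4.63 in the untreated arrays and 6.35, 5.12 and 4.84 in the bead arrays, where bead replicate 1 alone stood above the other concordant arrays.

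Ribosomal protein genes were lower with beads in 34 of 43 cases in the 16-array fit, with a median of -0.11, and their median was 0.01 with all arrays. Both concordant bead arrays lay below in 8 (18.6%), close to the 17% of all genes. The list averaged 10.13 and 10.04 in the concordant untreated arrays and 10.15 and 9.82 in the concordant bead arrays, so that only bead replicate 2 had a lower list mean. Genes of cholesterol and fatty acid synthesis had a median difference of 0.04 in the 16-array fit and of 0.02 in the 18-array fit. HMGCS1, an early enzyme of the cholesterol pathway, read 5.87, 6.67 and 4.35 in the untreated arrays and 6.68, 6.52 and 5.11 in the bead arrays, and differed by 0.33 ± 0.49 in the 16-array fit and 0.47 ± 0.59 in the 18-array fit, with a 16-array interval of -0.72 to 1.37. STC1, the secreted glycoprotein stanniocalcin 1, read 6.66, 6.93 and 6.43 in the untreated arrays and 6.53, 6.66 and 6.94 in the bead arrays and differed by -0.20 ± 0.15 in the 16-array fit and 0.04 ± 0.18 in the 18-array fit. CD47 differed by 0.24 ± 0.43 in the 16-array fit and -0.01 ± 0.71 in the 18-array fit. For THBS1 the difference was 0.10 ± 0.13 in the 16-array fit and -0.34 ± 0.93 in the 18-array fit. For CD63 it was 0.07 ± 0.17 in the 16-array fit and 0.34 ± 0.71 in the 18-array fit.

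**Figure D5:**
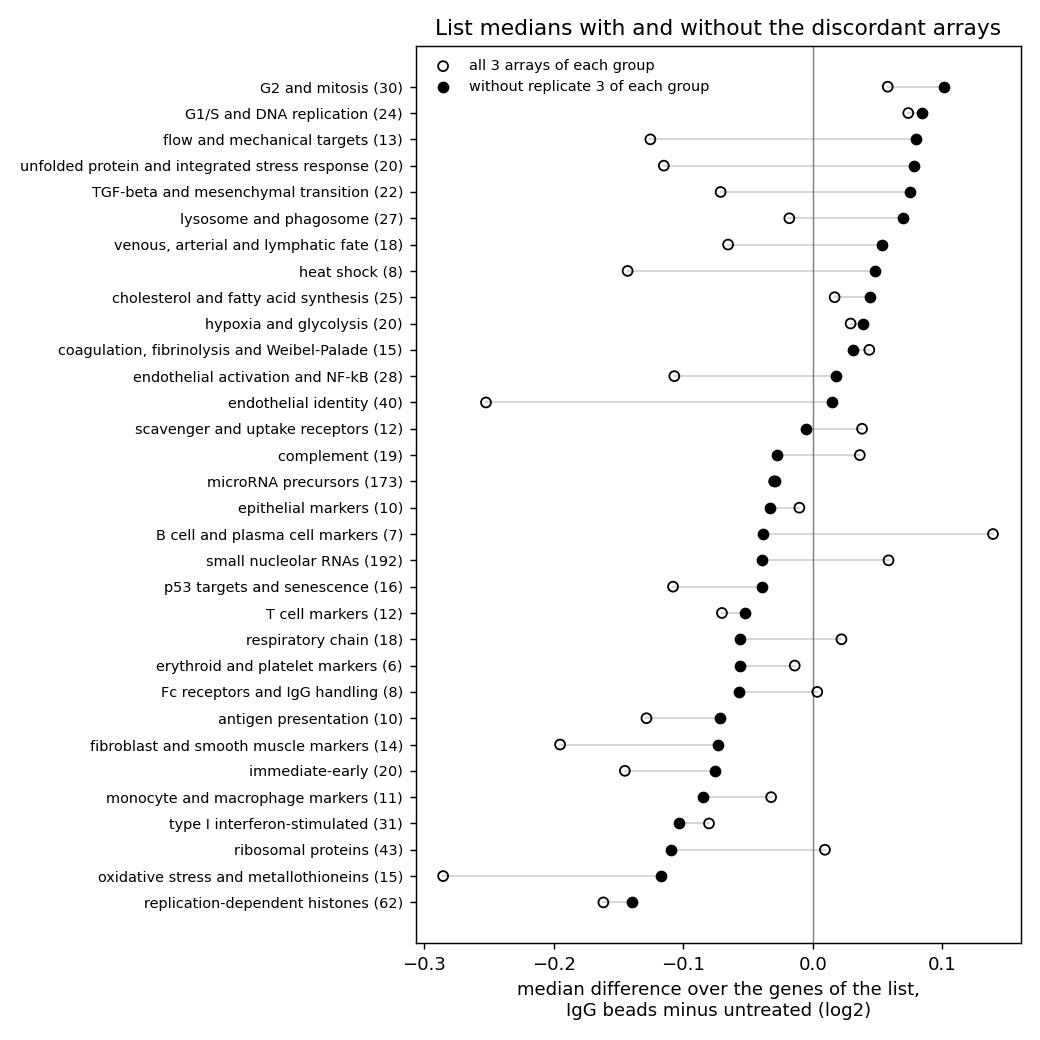
Median difference (log2, IgG beads minus untreated) over the measured genes of each of 32 lists, with the number of genes in brackets; open circles are the 18-array fit and filled circles the 16-array fit. Filled circles lie between -0.14 and 0.10, and several lists, among them endothelial identity, cross from negative in the 18-array fit to positive in the 16-array fit.

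MIEN1, a membrane-anchored regulator of cell migration, had the smallest p in the 18-array fit. It read 8.83, 8.79 and 9.11 in the untreated arrays and 8.53, 8.17 and 7.96 in the bead arrays, a difference of -0.69 ± 0.18 (unadjusted p = 0.0015) with all arrays and -0.46 ± 0.15 without both replicate 3. NDUFB11, a subunit of respiratory complex I, read 8.54, 8.18 and 9.15 in the untreated arrays and 7.92, 7.85 and 7.69 in the bead arrays, a difference of -0.80 ± 0.21 and -0.47 ± 0.16 in the 2 fits. In both genes all 3 bead arrays lay below all 3 untreated arrays. Both were named for a small p in the 18-array fit, so that this order follows in part from the choice. NDUFB11 is not in the respiratory chain list of 18 measured genes. The median difference of that list was 0.02 with all arrays and -0.06 without both replicate 3. Of its 18 genes, 1 lay below in both concordant bead arrays (5.56% against 17% of all genes) and 0 in all 3. FAU, a ribosomal protein made as a fusion with a ubiquitin-like domain, differed by -0.81 ± 0.26 and -0.40 ± 0.20. AP2S1, a subunit of the clathrin adaptor, differed by -0.59 ± 0.18 and -0.30 ± 0.14. LY6G5C, ZXDA, ZNF219 and TNFAIP8L1 were the other named falls besides RAMP2 and MT1F, between -0.76 and -0.69 with all arrays and between -0.52 and -0.32 without both replicate 3.

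Of the 10 named rises in that fit, 4 were small nucleolar RNAs, the guides of RNA modification. SNORA74A read 4.34, 4.73 and 4.06 in the untreated arrays and 5.29, 5.13 and 5.67 in the bead arrays, above in all 3 bead arrays, with 0.99 ± 0.27 (unadjusted p = 0.0024) and 0.68 ± 0.28 in the 2 fits. Its order too follows in part from the choice by p. SNORD43 differed by 0.64 ± 0.21 and 0.23 ± 0.14. Over all 192 measured genes of this class, 8 lay above and 5 below in all 3 bead arrays. Both directions exceeded the shares of all genes, 0.609% and 1.05%. Both concordant bead arrays lay above in 30 (15.6% against 12.2%) and below in 36 (18.8% against 17%). The median difference of the class was 0.06 with all arrays and -0.04 without both replicate 3. NUP50, a nuclear pore protein, read 5.97, 6.16 and 5.57 in the untreated arrays and 6.58, 6.43 and 6.76 in the bead arrays and differed by 0.69 ± 0.23 and 0.44 ± 0.23. ATAD5, which unloads the replication clamp, differed by 0.59 ± 0.18 and 0.35 ± 0.16, and TAF1, the largest subunit of the TFIID complex, by 0.52 ± 0.19 and 0.30 ± 0.15, in the same order. ZNF737, a zinc finger gene, had the largest of the 10 rises at 1.16 ± 0.39 (0.60 ± 0.33 without both replicate 3), with overlapping groups and a value of 2.79 in untreated replicate 3.

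SELENOM, a selenoprotein of the endoplasmic reticulum, had the smallest p in the 16-array fit. It read 8.98, 8.77 and 8.22 in the untreated arrays and 8.29, 8.28 and 8.23 in the bead arrays, a difference of -0.60 ± 0.15 in the 16-array fit and -0.40 ± 0.19 in the 18-array fit (unadjusted p = 0.0012 and 0.056), and in untreated replicate 3 it lay at the level of the bead arrays. LIMD1-AS1, an antisense transcript, was the 1 gene beyond 2-fold in that fit. It read 6.14, 6.21 and 4.002 in the untreated arrays and 5.27, 4.28 and 3.88 in the bead arrays, a difference of -1.40 ± 0.39 in the 16-array fit and -0.97 ± 0.53 in the 18-array fit, and the 2 concordant bead arrays were further from each other than the lower of the concordant untreated arrays was from the nearer of them. Signals of an antisense gene and its partner are kept apart only as far as the probe set is strand-specific, which was not checked. NDUFS8, another complex I subunit and also outside the respiratory chain list, read 9.29, 8.93 and 8.62 in the untreated arrays and 8.66, 8.37 and 7.69 in the bead arrays. It differed by -0.59 ± 0.18 in the 16-array fit and -0.71 ± 0.24 in the 18-array fit. MED11, a subunit of Mediator, differed by -0.60 ± 0.18 in the 16-array fit and -0.58 ± 0.20 in the 18-array fit. SOX13, a transcription factor, differed by -0.40 ± 0.13 in the 16-array fit and -0.25 ± 0.15 in the 18-array fit. MT1DP, a metallothionein pseudogene, differed by -0.49 ± 0.15 in the 16-array fit and 0.06 ± 0.45 in the 18-array fit and is open to the same cross-binding as its family.

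Among the rises of the 16-array fit, ZDBF2, an imprinted gene, read 4.94, 5.61 and 4.81 in the untreated arrays and 6.17, 6.01 and 5.01 in the bead arrays and differed by 0.82 ± 0.25 in the 16-array fit and 0.61 ± 0.30 in the 18-array fit (unadjusted p = 0.0055 and 0.064). RPS6KA5, the chromatin kinase MSK1, read 4.36, 4.59 and 4.69 in the untreated arrays and 5.17, 5.02 and 4.14 in the bead arrays and differed by 0.62 ± 0.20 in the 16-array fit and 0.23 ± 0.25 in the 18-array fit. NAIP, an inflammasome sensor, read 4.85, 5.50 and 4.96 in the untreated arrays and 5.74, 6.11 and 4.49 in the bead arrays and differed by 0.75 ± 0.28 in the 16-array fit and 0.35 ± 0.35 in the 18-array fit. MIR21, the gene of a microRNA abundant in endothelium, read 7.43, 7.96 and 5.17 in the untreated arrays and 8.57, 8.20 and 4.61 in the bead arrays and differed by 0.69 ± 0.26 in the 16-array fit and 0.27 ± 0.83 in the 18-array fit. In ZDBF2, RPS6KA5, NAIP and MIR21 both concordant bead arrays were above both concordant untreated arrays, and in RPS6KA5, NAIP and MIR21 bead replicate 3 was the lowest of the 6 values. These genes were named for a small p in the 16-array fit, so that the separation of its arrays follows in part from the choice. FAP, DSEL, BTBD6, CAPNS2, VSIG10 and BIN3-IT1 were the other named rises, between 0.40 and 0.63 in the 16-array fit and between -0.23 and 0.48 in the 18-array fit, where DSEL and BTBD6 were negative.

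The discordant arrays are described by the genes furthest from the concordant mean. NAMPT, an enzyme of NAD synthesis, was among the 10 genes furthest below in both, by -5.56 in untreated replicate 3 and -6.42 in bead replicate 3. HIF1A, the hypoxia-inducible factor, stood at -4.38 and -5.99 relative to the concordant mean, and GALNT1, a Golgi glycosyltransferase, at -5.45 and -5.48. RPS3A, a ribosomal protein, lay further below in untreated replicate 3 (-5.60) than in bead replicate 3 (-3.22), whereas ABI3BP, a matrix protein, lay further below in bead replicate 3 (-3.88 and -6.47). SAP30, a subunit of the SIN3 complex, was 3.40 above in untreated replicate 3 and 0.40 in bead replicate 3. SPANXN3, a testis gene, was 4.01 above in bead replicate 3 and 0.40 in untreated replicate 3.

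Some endothelial genes were higher, not lower, in the discordant arrays. CLDN5, a claudin of tight junctions, read 6.49, 5.94 and 8.52 in the untreated arrays and 6.07, 6.25 and 6.999 in the bead arrays. SOX17 and SOX18, arterial and vascular transcription factors, were 1.55 and 1.33 above the concordant mean in untreated replicate 3 and 1.12 and 0.73 above it in bead replicate 3. KLF2 was 0.91 above it in untreated replicate 3 and 0.21 in bead replicate 3, and DUSP5, a phosphatase induced by growth factor signalling, stood at 1.59 and -0.20 relative to it. Between the 2 discordant arrays DUSP5 and CLDN5 were lower with beads, and with all arrays DUSP5 differed by -0.81 ± 0.32 (unadjusted p = 0.023), against -0.22 ± 0.16 without both replicate 3. These are values of single arrays, and the part of RNA quality or of any handling in them was not tested.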

How the data were processed

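RNA of HUVEC was measured on Affymetrix whole-transcript arrays. The log2 values deposited by the authors are RMA signals made in Affymetrix Expression Console, per the submitters' processing notes; no version or genome build is given in the sources used here. The log2 scale was read from the range of the values. RMA corrects background and quantile-normalizes arrays, so that only relative levels remain. The labels and the design text name different RNA kits, and how well short RNAs were kept is not known.

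Of 33297 probe sets, 12083 had no gene and 1754 several symbols in the platform annotation and were left out. Among the other 19460, the probe set with the highest mean over 18 arrays stood for each of 18395 genes, 788 of which had more than 1. Older symbols were updated through RefSeq for 25 genes.

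A model with 1 mean per group was fitted with limma 3.58.1 (lmFit and eBayes) in R 4.3.3 to 18 arrays, and to 16 without both replicate 3. A gene was called at a Benjamini-Hochberg adjusted p under 0.05 over all genes. Lists are described by medians and counts. Named genes are the 10 rises and 10 falls with the smallest p in each fit, up to 4 members per list, the 10 genes furthest from the concordant mean on each side in each discordant array, and a fixed set of endothelial, Fc receptor and CD47-related genes; the text gives a selection, and further list members (such as PTPRC, CD3E, CD7, KRT18, TRIB3, CHAC1, HSPA5 and LAMP1) were chosen after their values were seen. The members and lists were chosen with earlier results of these data known. Alternatives were other sets of arrays, renormalization, centring, filters at 25% and 50%, other probe set rules, trend and robust options, array weights, the array SD as a covariate and a minimum of 1.5-fold. Tables and plots used Python 3.11.15, numpy 2.4.6, pandas 2.3.3 and matplotlib 3.10.9.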

Additional observations from a re-analysis of the deposited data

How the results depend on the processing

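The count of genes called between IgG beads and untreated cells was 0 in 31 of 32 other settings of the 18-array fit and in 28 of 28 of the 16-array fit. The exception was array weights on 18 arrays, where 13851 genes passed, 6611 higher and 7240 lower. The estimation of these weights stopped before it converged, with weights from 0.00514 for bead replicate 3 to 690 for untreated replicate 1, so that this count rests on hardly more than 1 untreated array. When any 1 array was left out, the count ranged from 0 to 0 in both fits. Leaving out bead replicate 3 alone gave the smallest adjusted p of these, 0.356. Without untreated replicate 2, unadjusted p fell under 0.05 for 831 genes in the 18-array fit and 601 in the 16-array fit. Both counts are under a share of 0.05 of all genes. With the array SD as a covariate in the 18 arrays, unadjusted p fell under 0.05 for 3090 genes, above that share. Leaving out replicate 1 of the Jurkat MHC class 1 vesicle group, an array outside the comparison, gave 553 such genes in the 16-array fit, against 188 with it. In the 18-array fit the count was 202, against 203. That array enters only through the spread, so that SEs, intervals and p-values of the 16-array fit depend on it while the differences do not.

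Of the 113 genes given with a level or a difference in the text, 73 kept the direction of their difference under every alternative of the 16-array fit in which they were tested, and 41 under those of the 18-array fit. For CDH5 the difference ranged from -1.65 to 0.93 in the latter and from -0.11 to 0.07 in the former. Some alternatives cannot change a difference, so that every direction is kept in them by construction. These are leaving out a vesicle array, fitting only the 2 groups, the trend and robust options and the 1.5-fold minimum. Genes named for a small p in a fit were also chosen on its differences, which favours a kept direction. The metallothionein median ranged from -0.46 to -0.26 in the 16-array fit and from -0.76 to -0.20 in the 18-array fit. No paired analysis was possible because the replicate numbers were given in accession order and pair no arrays. Arrays give no depth, and 2 or 3 per group limit what could be detected.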
